A study of Mus musculus with 32 samples.

Results

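Occupancy by HNF4A, a nuclear receptor transcription factor of absorptive epithelium, was examined at 5 genes of ileal bile acid handling, Slc10a2, Fabp6, Fgf15, Abcc2 and Abcc3, in the mouse jejunum. The genes were listed by function, and their windows by position. Peaks of 8 HNF4A ChIP-seq lists that shared at least 1 bp were merged into 45552 sites, and 25 of these lay in the gene body of a member or within 20 kb of it. Of the 25 sites, 11 were at Abcc2, 9 at Abcc3, 3 at Slc10a2 and 2 at Fgf15, and Fabp6 had 0.

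All 8 libraries came from male C57BL/6J mice, 10 to 12 weeks old and reared germ-free (GF). The sample labels give their diet as 2020SX, while the study's methods name other chows. In the GF+HFM group, 4 mice stayed germ-free and received a high-fat meal (HFM), a chicken egg yolk emulsion given by gavage. In the CV+HFM group, 4 mice were colonized with a conventional microbiota for 14 days (CV) and received the same meal. Jejunal intestinal epithelial cells (IECs) were collected 2 hours after the meal, with the duodenum and the ileum cut away. These preparations hold most villus epithelium with a share of crypts and villus mesenchyme, and each library is 1 mouse. In such a bulk preparation, binding in fewer cells and weaker binding per cell cannot be told apart.

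Bile acids are made from cholesterol in the liver, act as detergents on dietary fat and are largely recovered at the end of the small intestine. There, enterocytes take them up through SLC10A2, carry them in the cytosol on FABP6 and release the hormone FGF15, which restrains bile acid synthesis in the liver. ABCC2 and ABCC3 are efflux pumps of the apical and the basolateral membrane that export bile acid conjugates and other organic anions, and they are not limited to the ileum. The comparison asks which of these genes have HNF4A sites in the jejunum, a segment upstream of the main site of active bile acid uptake, and whether calls differ with colonization.

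The lists differed in length before any gene was considered. GF+HFM lists held 31061 to 36846 peaks and CV+HFM lists 4533 to 29345, without overlap between the groups. CV+HFM replicate 4 was the shortest, with a median peak width of 103 bp against 186 to 464 bp in the other libraries. Reads per library are not in the lists, so depth is unknown, and the part of depth, enrichment or input in list length was not tested. The series holds 1 input library for each group, so input and colonization cannot be told apart. The start of Vil1, Fabp2, Apoa4 and Alpi, markers of enterocytes, lay in a site called in all 8 libraries, while Lct, the fifth marker, had 5 sites in its window and 0 at its start. Of the 17 markers of other cells, 7 had 0 sites in their windows, namely the mesenchymal Col3a1 and Pdgfra, the immune Ptprc, the hepatic Alb, the stem cell gene Ascl2, the Paneth gene Mmp7 and the enteroendocrine gene Neurod1. The other 10 had 1 to 9, with 9 at the hepatic gene Apoh and 2 each at the immune gene Cd3e and the mesenchymal gene Col1a1. Sites over a gene start were not confined to enterocyte markers. The goblet gene Tff3, the Paneth gene Lyz1 and Apoh had such a site. At each, all 4 lists from germ-free mice held a peak, as did 2 from colonized mice. None of the remaining markers of other cells had a site at its start. Calls at a gene are no measure of how many cells of a type were present.

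The sequences of 8 of the 25 sites follow, read 5′ to 3′ on the strand of the member gene. They are the site or sites called in most libraries at each gene, the sites over the starts of Abcc2 and Abcc3, and the 2 sites with an exact copy of a core of the HNF4A motif. At those 2 sites the 300 bp at the centre of the merged site are shown. Elsewhere the stretch is the one that the peaks of every calling library share. Where it held bases of untranslated exons, only its longest run without them is shown. At the starts of Abcc2 and Abcc3 that run lies wholly upstream of the gene. Capitals mark the 9-base cores CAAAGTCCA and CAAAGGTCA on either strand with at most 1 mismatch, and exact copies of GATAAG or TTTATNG, the letters bound by GATA and CDX factors.
Slc10a2 site 3 (mm9 chr8:5077020-5077146, minus strand): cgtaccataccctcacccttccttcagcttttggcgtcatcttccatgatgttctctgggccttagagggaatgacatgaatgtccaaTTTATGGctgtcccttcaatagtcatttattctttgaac
Fgf15 site 1 (mm9 chr7:152100596-152100798, plus strand): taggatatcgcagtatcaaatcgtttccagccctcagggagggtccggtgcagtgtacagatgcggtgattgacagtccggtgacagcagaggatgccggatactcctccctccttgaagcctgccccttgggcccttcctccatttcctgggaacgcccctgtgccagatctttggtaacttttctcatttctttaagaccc
Abcc2 site 2 (mm9 chr19:43846811-43847110, plus strand): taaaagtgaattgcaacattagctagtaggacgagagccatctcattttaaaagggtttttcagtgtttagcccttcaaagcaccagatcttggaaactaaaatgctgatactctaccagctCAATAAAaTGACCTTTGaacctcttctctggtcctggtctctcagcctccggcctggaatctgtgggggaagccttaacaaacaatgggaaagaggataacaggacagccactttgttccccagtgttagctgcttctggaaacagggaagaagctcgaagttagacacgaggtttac
Abcc2 site 5 (mm9 chr19:43856453-43856681, plus strand): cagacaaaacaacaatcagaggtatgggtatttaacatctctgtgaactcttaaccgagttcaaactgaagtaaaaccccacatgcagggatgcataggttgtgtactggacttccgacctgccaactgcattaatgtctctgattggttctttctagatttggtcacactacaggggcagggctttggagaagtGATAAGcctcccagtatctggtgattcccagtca
Abcc2 site 10 (mm9 chr19:43887892-43888023, plus strand): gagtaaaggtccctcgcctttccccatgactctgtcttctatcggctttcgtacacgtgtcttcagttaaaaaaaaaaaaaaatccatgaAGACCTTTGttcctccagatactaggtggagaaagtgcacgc
Abcc3 site 1 (mm9 chr11:94266341-94266523, minus strand): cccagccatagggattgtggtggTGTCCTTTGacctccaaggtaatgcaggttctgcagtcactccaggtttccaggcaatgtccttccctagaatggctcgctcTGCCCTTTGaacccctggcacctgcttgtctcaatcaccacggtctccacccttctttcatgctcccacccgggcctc
Abcc3 site 2 (mm9 chr11:94254312-94254426, minus strand): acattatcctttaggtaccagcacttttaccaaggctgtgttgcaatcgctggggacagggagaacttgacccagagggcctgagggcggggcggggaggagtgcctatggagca
Abcc3 site 9 (mm9 chr11:94191833-94192132, minus strand): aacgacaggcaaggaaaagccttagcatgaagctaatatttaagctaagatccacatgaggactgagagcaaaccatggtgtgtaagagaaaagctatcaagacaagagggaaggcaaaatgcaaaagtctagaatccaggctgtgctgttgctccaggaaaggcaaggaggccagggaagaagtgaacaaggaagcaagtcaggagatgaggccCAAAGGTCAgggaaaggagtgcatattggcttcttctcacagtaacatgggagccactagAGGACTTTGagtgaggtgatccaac

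Exact cores were infrequent at these genes and in the genome alike. In windows of 300 bp at the site centre, searched on both strands, 2 of the 25 sites held CAAAGTCCA or CAAAGGTCA, and 10.7% of 45324 merged sites on placed chromosomes did. Both matches were CAAAGGTCA, at Abcc2 site 2 and Abcc3 site 9. Allowing 1 mismatch, a choice made after the exact matches were counted, a core lay in 14 of the 25 windows and in 54.0% of all windows. Abcc3 site 1, called in 7 libraries, carried 2 such near copies in the stretch shared by its peaks. The GATA letters GATAAG occurred in 4 of the 25 windows against 16.1% of all, and the CDX letters TTTATNG in 4 against 15.3%. One of the CDX matches was in Slc10a2 site 3, the Slc10a2 site with the most calls. The inverted repeat GGTCANTGACC, the element of the bile acid receptor FXR, was found with at most 1 mismatch in 0 of the 25 windows and in 1.38% of all. The letters searched can overlap or lie close together, as the CDX letters and the core do in Abcc2 site 2, and a window without a match says only that those letters were not in it. Median GC content was 47.0% over the 25 windows, with a range of 36% to 60.7%, and 48.3% over all windows.

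**Figure D1:**
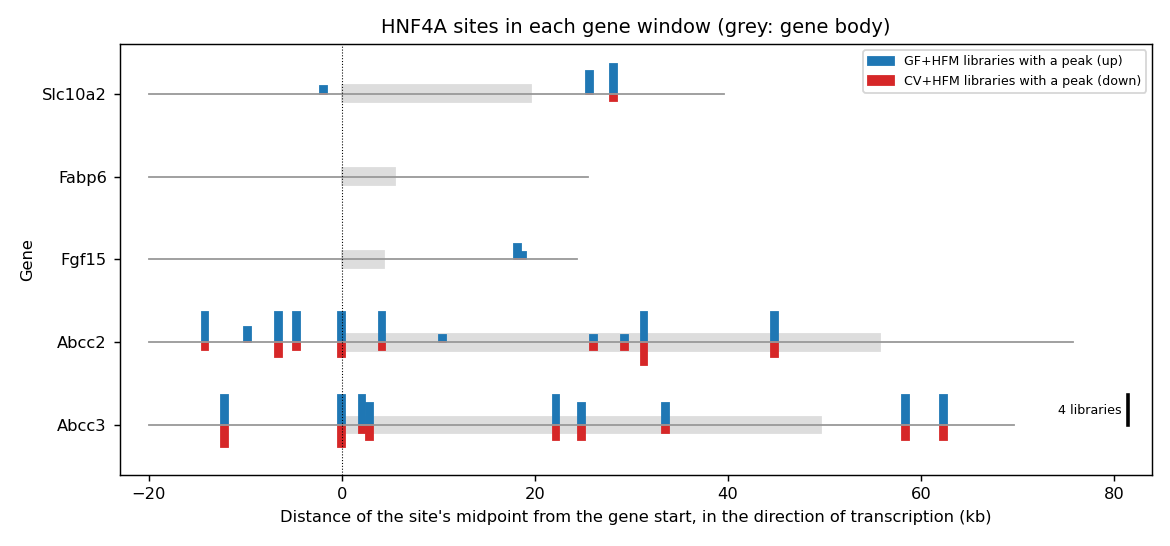
Midpoints of the 25 HNF4A sites along the windows of the 5 genes, in kb from the gene start in the direction of transcription. Blue bars above each line give the number of GF+HFM libraries with a peak and red bars below it the number of CV+HFM libraries. The 20 sites of Abcc2 and Abcc3 spread over the gene bodies and flanks, while the 5 sites of Slc10a2 and Fgf15 lie outside the gene bodies and Fabp6 has 0.

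Slc10a2 encodes the apical sodium-dependent transporter that takes bile acids up from the ileal lumen. The gene (ENSMUSG00000023073.1) lies on the minus strand at chr8:5085623-5105232 of mm9, and its 3 sites were all outside the gene body. Site 1, 1850 bp upstream of the start at chr8:5106995-5107169, was called in GF+HFM replicate 1 alone, with a peak of 175 bp. Its width percentile, the share of that library's peaks that were as narrow or narrower, was 8.61. Site 2, at chr8:5079378-5079682, began 5940 bp past the end of the gene. It was called in GF+HFM replicates 1, 2 and 4 at width percentiles of 13.4, 47.7 and 13.2, and in 0 CV+HFM libraries. Site 3, at chr8:5076823-5077282 and 8340 bp past the end, was the Slc10a2 site found in most libraries. Its percentiles were 38.0, 38.7, 34.2 and 48.2 in GF+HFM replicates 1 to 4 and 42.3 in CV+HFM replicate 1. Its peaks were of less than median width in every library that called it, and the CV+HFM value lay within the GF+HFM range. For both downstream sites the nearest start of a protein-coding gene was that of Slc10a2 itself.

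Fabp6 encodes the cytosolic bile acid binding protein of ileal enterocytes. No merged site lay in its window, the gene body at chr11:43409551-43415042 on the minus strand (ENSMUSG00000020405.4) with 20 kb either side. An empty window was common, since 34.5% of 22380 protein-coding genes had 0 sites in theirs. The site nearest to Fabp6 was 24421 bp away, at chr11:43439463-43440169, and had a peak in 4 GF+HFM and 2 CV+HFM lists. With 50 kb either side, Fabp6 had 5 sites, 3 of them called in all 4 GF+HFM libraries.

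Fgf15 encodes the hormone that enterocytes secrete in response to bile acids. The gene (ENSMUSG00000031073.5) is at chr7:152082437-152086858 on the plus strand, and both of its sites were past its end, by 13719 and 14164 bp. Both were nearer to the start of the neighbouring gene Oraov1, at 316 and 198 bp, and site 2 overlapped Oraov1. Site 1, at chr7:152100578-152100800, was called in GF+HFM replicates 1 and 2 at percentiles of 23.9 and 17.1. Site 2, at chr7:152101023-152101384, was called in GF+HFM replicate 4 at a percentile of 31.7. Neither site was called in a CV+HFM library, and with 5 kb either side the Fgf15 window held 0 sites.

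Abcc2 encodes MRP2, the efflux pump of the apical membrane. The gene (ENSMUSG00000025194.4) is at chr19:43856682-43912441 on the plus strand. It had the most sites of the 5 genes, 11 in its window, with 7 in the gene body and 4 upstream of it. Site 5, at chr19:43856307-43857007, covered the gene start with parts of exon 1 and intron 1. Its width percentiles were 77.9, 82.0, 80.4 and 78.4 in GF+HFM replicates 1 to 4, and 82.7 and 79.9 in CV+HFM replicates 1 and 3. The 6 values lay close together, and the groups overlapped wherever the site was called. Site 10, at chr19:43887567-43888465, covered exon 15 with parts of introns 14 and 15. It was the most widely called Abcc2 site, with 7 libraries. Its percentiles were 89.6, 77.8, 84.6 and 88.4 in GF+HFM replicates 1 to 4, and 77.6, 27.8 and 85.4 in CV+HFM replicates 1, 2 and 3. The low value was a peak of 148 bp in CV+HFM replicate 2.

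Upstream of Abcc2, site 1 at chr19:43842105-43842928 lay within the neighbouring gene Cutc, 14165 bp before the Abcc2 start. Every GF+HFM library had a peak there, at percentiles of 59.9 to 90.0, as did CV+HFM replicate 1 at 77.7. Site 3, at chr19:43849892-43850463 and 6504 bp before the start, had peaks in 4 GF+HFM and 2 CV+HFM lists, with percentiles of 60.2 to 70.2 and, in colonized mice, 51.9 and 61.1. Site 4, at chr19:43851668-43852399, was called in 4 and 1 and varied most among the GF+HFM libraries of the Abcc2 sites, from 15.5 to 80.7. Site 2, which holds the core CAAAGGTCA, was called in GF+HFM replicates 3 and 4 alone, at 24.3 and 49.6. Within the gene, site 6 in intron 2 was called in 4 and 1 libraries and site 11, over parts of exon 25 and intron 25, in 4 and 2. The other 3 intronic sites had 1 GF+HFM call each, with 0 CV+HFM calls at site 7 in intron 2 and 1 each at site 8 in intron 10 and site 9 in intron 13. At sites 8 and 9 the CV+HFM call was in replicate 1, with percentiles of 9.82 and 65.2 against 66.7 and 45.1 in the single GF+HFM library.

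Abcc3 encodes MRP3, the efflux pump of the basolateral membrane. The gene (ENSMUSG00000020865.9) is at chr11:94204612-94254311 on the minus strand, and of its 9 sites 6 were in the gene body, 1 upstream and 2 downstream. Each of the 9 was called in at least 1 CV+HFM library, as were 76.0% of the 25 member sites and 64.4% of all merged sites. Site 2, at chr11:94254176-94254529, covered the gene start and was called in 7 libraries. Its percentiles were 51.7, 54.0, 27.9 and 28.3 in GF+HFM replicates 1 to 4, and 44.8, 41.5 and 12.6 in CV+HFM replicates 1, 2 and 3. The start site of Abcc3 was thus narrower, relative to each list, than that of Abcc2 in all 6 libraries that called both. Site 1, at chr11:94266120-94266835 and 12166 bp upstream, was also called in 7 libraries. Its percentiles were 74.2, 80.7, 61.1 and 79.6 in GF+HFM replicates 1 to 4, and 69.1, 48.6 and 70.3 in CV+HFM replicates 1, 2 and 3. Cacna1g was the protein-coding gene whose body lay nearest to it, and the nearest protein-coding start was that of Abcc3.

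Within Abcc3, sites 3 and 4 were in intron 1, site 5 in intron 8, site 6 over exon 10 and site 7 over exons 21 and 22. Site 5, at chr11:94231711-94232503, had percentiles of 32.4 to 84.8 over the 4 GF+HFM libraries, with 32.3 and 57.0 in CV+HFM replicates 3 and 1. Sites 4 and 6 were called in 3 and 2 libraries and site 7 in 3 and 1. Site 3 was called in 4 and 1, but its 5 peaks shared no base, so that it is 1 site only by a chain of overlaps. Past the end of the gene, sites 8 and 9 lay in Ankrd40 and were each called in 4 and 2 libraries. Site 9, at chr11:94191543-94192421 and with an exact CAAAGGTCA, had the widest spread of all 14 sites called in every GF+HFM library, at percentiles of 9.26, 34.2, 93.3 and 30.5 in replicates 1 to 4.

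**Figure D2:**
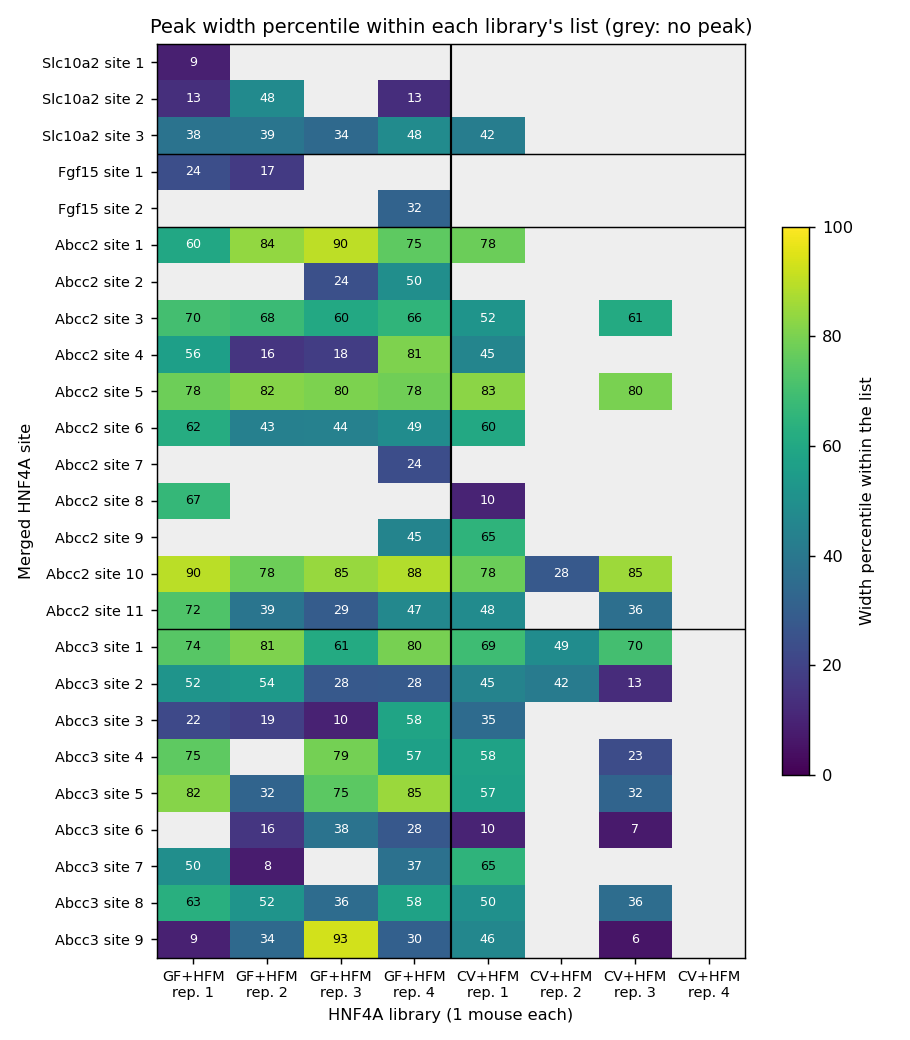
Width percentile of each peak within its own library's list, for the 25 sites (rows) in the 8 HNF4A libraries (columns), with grey for no peak. The 14 sites called in all 4 GF+HFM libraries are mostly at Abcc2 and Abcc3, and the column of CV+HFM replicate 4 is empty.

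Over all 25 sites, GF+HFM replicates 1 to 4 called 20, 18, 17 and 22, and CV+HFM replicates 1 to 4 called 19, 3, 11 and 0. The groups overlapped, because CV+HFM replicate 1 called more of the sites than GF+HFM replicates 2 and 3. More GF+HFM than CV+HFM libraries called 23 of the sites, equal numbers called 2, and more CV+HFM libraries called 0. Across the genome 86.5% of merged sites were called in more GF+HFM libraries, so the members' share followed that of the lists. Without CV+HFM replicate 4, a larger share of GF+HFM libraries called 20, equal shares called 3 and a larger share of CV+HFM libraries called 2. When every list was cut to its 4533 widest peaks, the length of the shortest, 3 sites were called in more GF+HFM libraries, 21 in equal numbers and 1 in more CV+HFM libraries, and the 21 were sites with no call left in any list.

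All 4 GF+HFM libraries called 14 of the 25 sites, against 50.6% of all merged sites. By gene these were 7 of 11 at Abcc2, 6 of 9 at Abcc3, 1 of 3 at Slc10a2 and 0 of 2 at Fgf15. Sites called in all 4 GF+HFM and 0 CV+HFM libraries numbered 0 among the members, against 2.79% genome-wide. CV+HFM replicates 1 to 4 called 14, 3, 9 and 0 of the 14 sites, and 91.6%, 37.1%, 78.0% and 17.0% of the 23049 merged sites found in all 4 GF+HFM libraries. No member site was called in all 8 libraries, where 3445 of 45552 merged sites were, and 3 of 25 were called in 1, against 21.6% of all merged sites. Fisher's exact test of calls, two-sided and with Benjamini-Hochberg adjustment over all merged sites, gave no member an unadjusted p below 0.143 or an adjusted p below 0.824. With 4 libraries against 4 it cannot go below 0.0286, a value that 1269 sites reached, and 0 sites passed after adjustment.

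Over the 14 sites the mean GF+HFM width percentile had a median of 50.7, with a range of 27.4 at Abcc3 site 3 to 85.1 at Abcc2 site 10. The median over all 23049 such sites was 62.0, and 6 of the 14 members were above it. The width at Abcc2 site 10, 85.1 ± 5.32 (SD, n = 4), was higher than at 83.0% of these sites, and that at Abcc2 site 5, 79.7 ± 1.89, than at 75.5%. Slc10a2 site 3, at 39.8 ± 5.97, was higher than 20.3% of them. Width rank between the groups can be compared only at sites called in every library. Without CV+HFM replicate 4, 3 member sites entered that comparison, run in limma on normal scores of width rank over 8375 sites. These ranks were taken among the 8375 sites alone, not among all peaks of a list. The sign of a difference can therefore depart from that of the width percentiles, as at the 2 Abcc3 sites. CV+HFM minus GF+HFM was -0.32 ± 0.377 (SE) at Abcc2 site 10 with adjusted p = 0.802, 0.09 ± 0.353 at Abcc3 site 1 with adjusted p = 0.95, and 0.39 ± 0.44 at Abcc3 site 2 with adjusted p = 0.798. The 3 differences were smaller than their errors, and none passed, while 5 of the 8375 sites did.

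**Figure D3:**
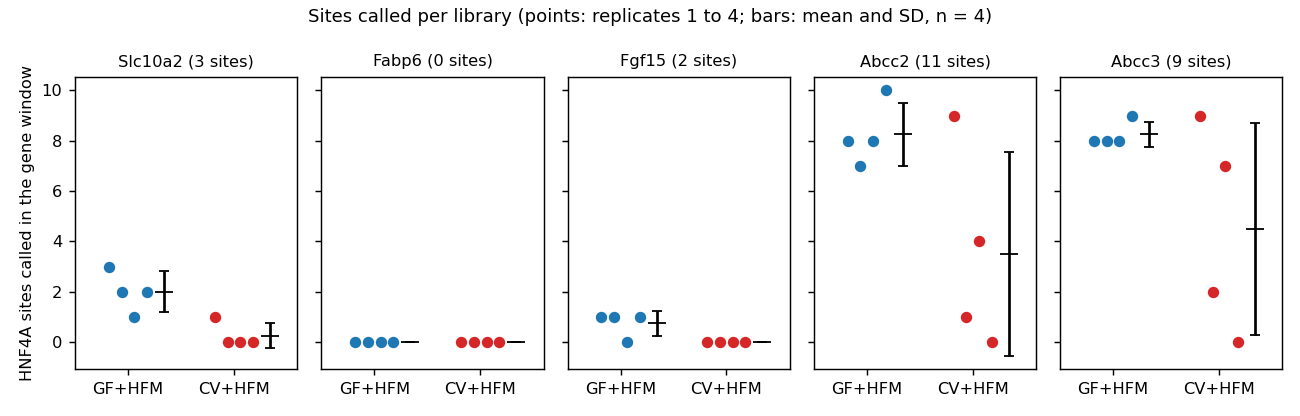
HNF4A sites called in the window of each gene by each library, with GF+HFM in blue and CV+HFM in red. Points are single libraries and black bars the mean and SD (n = 4), and CV+HFM libraries range from 0 to 9 at both Abcc2 and Abcc3, with the highest inside the GF+HFM range.

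Counted per window, Abcc2 had 8, 7, 8 and 10 called sites in GF+HFM replicates 1 to 4 and 9, 1, 4 and 0 in CV+HFM replicates 1 to 4. The means were 8.25 ± 1.26 and 3.5 ± 4.04 (SD, n = 4), a difference of -4.75, by an exact permutation test two-sided p = 0.114 and adjusted p = 0.319 over all 20459 genes with a site. Abcc3 had 8, 8, 8 and 9 against 9, 2, 7 and 0, means of 8.25 ± 0.5 and 4.5 ± 4.2, with an exact permutation p = 0.229 and adjusted p = 0.443. At both pumps CV+HFM replicate 1 was as high as the GF+HFM libraries, and CV+HFM replicate 4 was at 0. Without CV+HFM replicate 1, the longest CV+HFM list, the difference was -6.58 at Abcc2 and -5.25 at Abcc3. Each had an unadjusted exact permutation p = 0.0286, the smallest that 4 against 3 libraries allow, and each group stood apart. The share of all genes at that p in this setting is not given here, so it is no result particular to the pumps. Without CV+HFM replicate 4, it was -3.58 at Abcc2 with an exact permutation p = 0.171 and -2.25 at Abcc3 with an exact permutation p = 0.314, both unadjusted.

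Slc10a2 had 3, 2, 1 and 2 called sites in GF+HFM replicates 1 to 4 and 1, 0, 0 and 0 in CV+HFM replicates 1 to 4. The means were 2.0 ± 0.816 and 0.25 ± 0.5, with an exact permutation p = 0.0571 and adjusted p = 0.316. Fgf15 had 1, 1, 0 and 1 against 0 in each CV+HFM library, with an exact permutation p = 0.143 and adjusted p = 0.319. The counts at Slc10a2 shared the value 1 between the groups, and those at Fgf15 the value 0, in both cases through GF+HFM replicate 3. Without that library the groups separate by construction, with differences of -2.08 and -1.0 and an unadjusted exact permutation p = 0.0286 at both. The share of all genes at that p without this library is not given here either. With any other library left out, the exact permutation p was 0.0571 to 0.0857 at Slc10a2 and 0.143 at Fgf15. With all 8 libraries kept, 11.2% of all genes tested had more sites in every GF+HFM than in every CV+HFM library. None of the 5 members was among them. In that full set 2290 genes had an unadjusted exact permutation p below 0.05, and 0 passed after adjustment.

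Calls were also set against the length of each list. The members took 0.575, 0.618, 0.517 and 0.652 per 1000 of all called sites in GF+HFM replicates 1 to 4, and 0.686, 0.343, 0.558 and 0 in CV+HFM replicates 1 to 4. The highest and the lowest values were both in CV+HFM. At Abcc3 the relative value was 0.23 to 0.275 in GF+HFM, and 0.325, 0.229, 0.355 and 0 in CV+HFM replicates 1 to 4, so that 2 CV+HFM libraries were above all 4 GF+HFM libraries. At Abcc2 it was 0.23 to 0.297 in GF+HFM and 0.325, 0.114, 0.203 and 0 in CV+HFM. At Slc10a2 it was 0.0304 to 0.0862 in GF+HFM and 0.0361, 0, 0 and 0 in CV+HFM replicates 1 to 4. At Fgf15 it was 0.0287, 0.0343, 0 and 0.0297 in GF+HFM replicates 1 to 4 and 0 in each CV+HFM library. These shares are a description, without a test, and rest on 0 to 10 sites per gene and library.

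**Figure D4:**
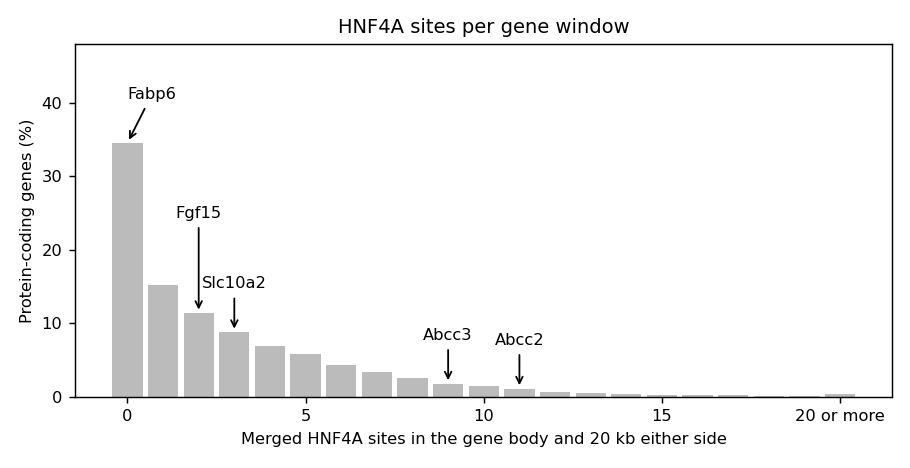
Share of 22380 protein-coding genes (y axis, %) by the number of merged HNF4A sites in the gene body and 20 kb either side (x axis), with arrows at the 5 members. Fabp6 sits in the tallest bar, the 34.5% of genes with 0 sites, and Abcc3 and Abcc2 in the right tail at 9 and 11.

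Set among 22380 protein-coding genes, whose median was 2 sites per window, the 5 genes ran from none to many. As many sites as Abcc2 or more were found at 4.02% of genes, as many as Abcc3 at 7.20%, as Slc10a2 at 38.9% and as Fgf15 at 50.2%. Longer genes have longer windows, and Abcc2 and Abcc3 are 55760 and 49700 bp long against 19610 bp for Slc10a2, 5492 bp for Fabp6 and 4422 bp for Fgf15. Per 100 kb of window the order stayed, with 11.5 sites at Abcc2, 10.0 at Abcc3, 5.03 at Slc10a2, 4.5 at Fgf15 and 0 at Fabp6, and 91.0%, 88.4%, 70.6% and 66.7% of genes had a lower density than the first 4. Within 20 kb of the gene start alone, Abcc2 had 7 sites, Abcc3 4, Fgf15 2, Slc10a2 1 and Fabp6 0, where 42.5% of genes had 0. Slc10a2 and Fgf15 change places in that count.

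**Figure D5:**
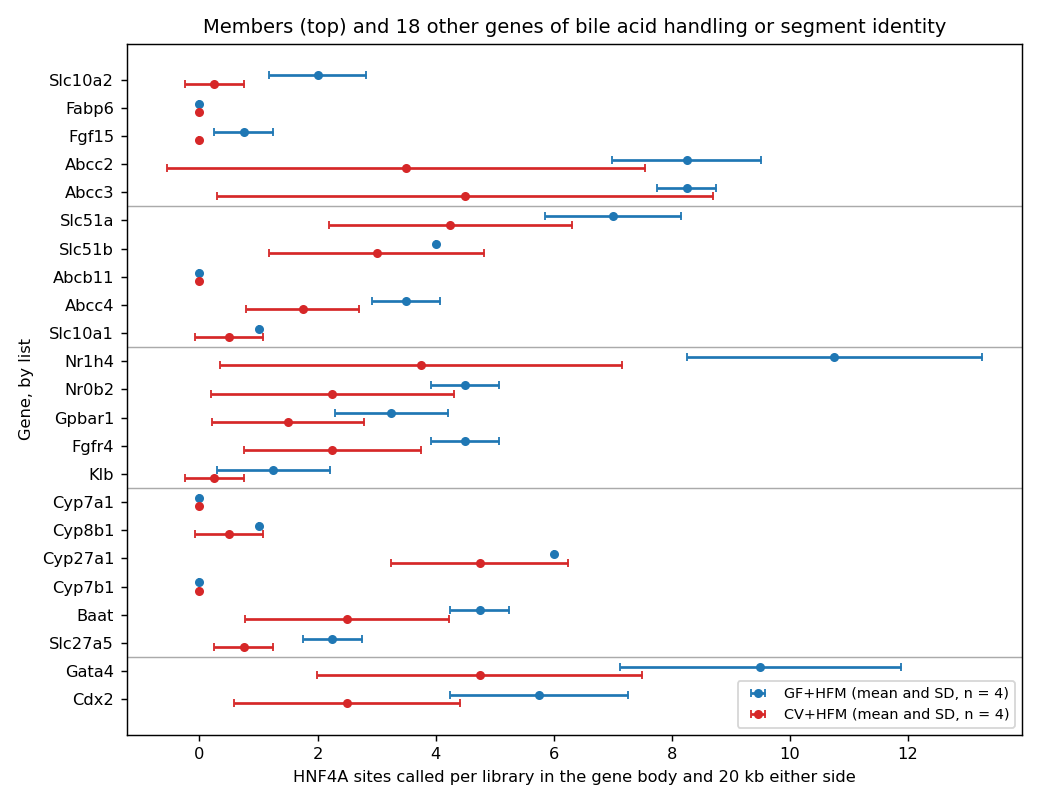
HNF4A sites called per library (x axis) for the 5 members, at the top, and for 18 other genes of bile acid transport, sensing, synthesis and segment identity. Points and bars are the mean and SD of 4 libraries, GF+HFM in blue and CV+HFM in red, and every gene with a site has its mean further left in CV+HFM.

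Among 18 other genes of bile acid handling and segment identity, 15 had a site, and the mean number called was lower in CV+HFM than in GF+HFM at all 15, as it was at 19556 of the 20459 genes tested. The heterodimer SLC51A and SLC51B carries bile acids across the basolateral membrane of ileal enterocytes. Slc51a had 10 sites, called at 7.0 ± 1.15 per GF+HFM and 4.25 ± 2.06 per CV+HFM library, and Slc51b had 5, at 4 in every GF+HFM library and 3.0 ± 1.83 in CV+HFM. A site lay over the start of Slc51b in all 4 GF+HFM libraries and over that of Slc51a in all 4 as well. The liver transporters differed between each other, with 0 sites at Abcb11, the canalicular bile salt pump, and 1 at Slc10a1, the hepatocyte uptake transporter. Abcc4, a further efflux pump, had 5.

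Of the genes of bile acid sensing, Nr1h4, which encodes FXR, had 16 sites, the most of the 18 genes. Its window spans 119352 bp, and per 100 kb it had 13.4 sites, against 21.5 at Cdx2, 19.1 at Slc51a and 13.9 at Nr0b2. Libraries called 11, 8, 10 and 14 of the Nr1h4 sites in GF+HFM replicates 1 to 4 and 8, 1, 5 and 1 in CV+HFM replicates 1 to 4 (exact permutation p = 0.0571, adjusted p = 0.316). The groups touched at 8. Nr0b2, the repressor SHP that FXR induces, and Fgfr4, the receptor of FGF15, had 6 each, Gpbar1, the membrane bile acid receptor, 4 and Klb, the co-receptor of FGFR4, 3. Of the genes of synthesis and conjugation, Cyp7a1, the rate-limiting enzyme, and Cyp7b1 had 0, and Cyp27a1, the mitochondrial sterol hydroxylase, had 6, all called in every GF+HFM library and 6, 4, 6 and 3 in CV+HFM replicates 1 to 4. Baat had 5 sites, Slc27a5 3 and Cyp8b1 1. Slc27a5, the bile acid CoA ligase, was the 1 gene of the 18 without overlap between the groups, at 2, 2, 3 and 2 against 1, 1, 1 and 0 (exact permutation p = 0.0286, adjusted p = 0.255). Gata4, a jejunal identity factor known to repress ileal genes such as Slc10a2, had 13 sites and Cdx2, an intestinal identity factor, 10, and neither passed the test.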

How the data were processed

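HNF4A ChIP-seq of jejunal IECs from 4 GF+HFM and 4 CV+HFM mice was analysed, and the groups and replicate numbers came from the sample titles. The authors aligned 50 bp reads with Bowtie2 (build mm9) and ran the peak caller MACS2 2.1.1.20160309 on each mouse against input, without pooling. The values they deposited are chromosome, start, end and name, with no count, height or p-value, so depth is unknown and no counting error can be given. Other libraries of the series were not analysed here.

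Starts were converted to positions counted from 1. Peak ends on 22 chromosomes were compared with NCBIM37, the same assembly as mm9, and 0 lay beyond a chromosome end. A library called a merged site with at least 1 bp of any peak. Genes follow GENCODE M1, in which Slc51a and Slc51b are named Osta and Ostb, and bases were taken from NCBIM37 with pysam 0.24.0. Nearest genes and nearest starts were sought among protein-coding genes only. Width percentiles are ranks within a list, while the limma test used ranks among the compared sites. Sites per window were compared by exact permutation over 70 relabellings, calls by Fisher's exact test with scipy 1.17.1, and width rank with limma 3.58.1 in R 4.3.3, all two-sided with Benjamini-Hochberg adjustment over all features and a threshold of 0.05. The permutation and limma tests were tested on simulated data. For unchanged genes the simulated call rate was equal in all libraries, where the real lists called 8.97% to 76.4% of merged sites. The noise simulated for limma was independent and normal. These checks therefore do not cover lists of unequal length. Alternatives were windows of 5 and 50 kb, peaks covering at least 50% of a site, peaks of at least 300 bp, lists of equal length, each library left out, a replicate block, ranks among all peaks and motifs in the whole site. Up to 1 mismatch in the motif cores was added after the data were seen. The members, the other bile acid genes, named whole, and the markers were chosen with earlier results of these data known. Figures were drawn with matplotlib 3.10.9.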

Additional observations from a re-analysis of the deposited data

Results flagged for a closer look

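Dixon's test was run on 30 groups of 4 values (list lengths, sites called per gene and width percentiles at the sites found in all GF+HFM libraries). In 3 groups a value lay far from the rest. The test's chance rate of about 1 in 20 holds for continuous, normal values and not for small counts. Groups of equal values, such as Fabp6 with 0 sites, could not be flagged. At Fgf15, GF+HFM replicate 3 called 0 sites where the others called 1. At Abcc3, GF+HFM replicate 4 called 9 sites where the others called 8. At Slc10a2, CV+HFM replicate 1 called 1 site where the others called 0. In counts this small, a step of 1 site is enough to pass that test.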

How the results depend on the processing

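Of 104 alternatives, 17 could not change a result, namely 13 at Fabp6 with 0 sites and the block at the other 4 genes. Of the other 87, 73 left the result on its side of an unadjusted p of 0.05 or within the allowed range, 10 moved a value, 4 brought an unadjusted p below 0.05, with no adjusted p computed for them, and 0 reversed a direction. Each gene window had a main p above 0.05, so a difference that shrank to 0 still counted among the 73. For the windows that count is no measure of stability. With lists of equal length, member sites called in more GF+HFM libraries numbered 3 in place of 23, where fewer peaks entered by construction, and with each library left out they numbered 20 to 25. With a library left out, the difference per window ranged from -2.08 to -1.42 at Slc10a2, -1.0 to -0.667 at Fgf15, -6.58 to -3.58 at Abcc2 and -5.25 to -2.25 at Abcc3, the last without CV+HFM replicate 4 (exact permutation p = 0.314). The lowest of each had an exact permutation p = 0.0286, without GF+HFM replicate 3 at the first 2 and without CV+HFM replicate 1 at the pumps. With lists of equal length the difference per window was 0 at Slc10a2 and Fgf15 and -0.25 at Abcc2 and Abcc3. In the order Slc10a2, Fgf15, Abcc2 and Abcc3, it was -0.25, 0, -3.0 and -2.5 with 5 kb either side. With peaks of at least 300 bp it was -0.5, -0.25, -4.25 and -4.25. Relative to the list, CV+HFM minus GF+HFM was -0.194 member sites per 1000, and -0.29 to -0.0614 with a library left out, nearest 0 without CV+HFM replicate 4. In the comparison of width rank over 3445 sites called in all 8 libraries, none of them a member, 4 sites passed, 0 with ranks among all peaks of the list, and 0 to 21 with a library left out (21 with CV+HFM replicate 1 removed, 14 with GF+HFM replicate 2 removed, 5 with CV+HFM replicate 4 removed and 0 for each of the others); the cause was not tested. Motif cores lay in 2 member sites, in 2 by the whole site, and in 14 with 1 mismatch, a looser match by construction.

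Same-numbered libraries were not taken as pairs. The correlations of their deviations were -0.025, -0.0535, -0.0373 and 0.0582 in site calls and 0.0534, 0.0746, -0.0776 and 0.138 in width rank for replicates 1 to 4, and pairing would need every pair above 0.1. With the replicate block, the exact sign-flip p was 0.125 at Slc10a2, 0.25 at Fgf15 and Abcc2 and 0.375 at Abcc3, with unchanged differences of -1.75, -0.75, -4.75 and -3.75, and 4 pairs cannot go below 0.125. Under the replicate block 4 sites passed in width rank, as without it. Depth is unknown, so a site without a call is not shown to be unbound.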
